A study of Rattus norvegicus with 6 samples.

Results

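miR-375 is a microRNA (miRNA) made from 1 gene. Its 3p arm is examined here in rat tissue, labelled testicle, that had or lacked HO-1, heme oxygenase 1, the enzyme that breaks down heme. The 2 arms, listed as rno-miR-375-3p and rno-miR-375-5p, were taken by name from a table of 764 rat miRNA entries. miR-375-3p was chosen because earlier results on these same libraries showed it higher in the knockout, so its change with genotype is given as a description and without a test. Small RNA was sequenced from tissue labelled testicle of male Sprague Dawley rats, with 3 libraries of genotype HO-1 knockout and 3 of genotype WT (wild type). Per the labels, every library, WT included, came from a testis turned by 720° for 2 h and collected 3 days after the blood flow returned. No library without that injury was therefore analysed here. The labels do not give the age of the animals, the allele of the knockout or whether the libraries stand for separate animals, so the spread between libraries may be partly technical.

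An miRNA hairpin is cut into 2 arms, and the arm that is loaded into an Argonaute protein pairs with messenger RNAs mainly through its seed, bases 2 to 8. miR-375-3p is best known from pancreatic islets, where it restrains insulin secretion and is needed for a normal mass of endocrine cells, and it is also known from other endocrine and epithelial cells, such as those of the pituitary and the gut. Myotrophin and Pdk1 are among its described targets, and neither was measured by this assay.

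The mature arms and the hairpin, from RefSeq on the rat build GRCr8, are shown because the measurements distinguish the arms by these letters. In the mature arms the capitals mark the seed, and in the hairpin they mark the 3p arm.
miR-375-3p: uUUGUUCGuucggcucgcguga
miR-375-5p: gCGACGAGccccucgcacaaacc
Mir375 hairpin: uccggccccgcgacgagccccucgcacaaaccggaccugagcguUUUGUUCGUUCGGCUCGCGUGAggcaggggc
The hairpin has 75 bases, of which 69.3% are G or C. The 5p arm covers bases 10 to 32 and the 3p arm bases 45 to 66, with 12 bases between them. The seed UUGUUCG belonged to 1 of the 693 mature rat miRNA names that had a sequence there, miR-375-3p itself. Of the 570 measured miRNAs with a value above 0, 517 had a sequence, and the seeds of the rest were not checked. With 54.5% G or C, the mature 3p arm was richer in these bases than the median of 45.5% over the 191 miRNAs of at least 10 reads per 1000000 assigned reads (RPM) that had a sequence, and 22 of them were richer still. In the GRCr8 gene order Mir375 lies on chromosome 9 between Cryba2, which encodes a lens crystallin, and Cfap65, which encodes a protein of cilia and flagella, on the minus strand and inside the span of the predicted gene LOC134480387. Those positions are of another build than rn6, the build named in the submitters' processing notes, so no coordinates are given.

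RPM values are relative to all reads assigned to the listed miRNAs. Library totals, read from the step of 1 read, ran from 8300536 to 10042673 reads. The tissue label was checked against marker miRNAs, and these markers did not bear it out. In every library the hepatocyte miRNA far exceeded those of germ cells and Sertoli cells, and the reason was not tested. miR-122-5p, a miRNA of hepatocytes, held 32.7% to 46.4% of the reads of every library. The germ cell list, of the miR-34b, miR-34c and miR-449 arms, summed to 26.8 to 52.8 RPM, and miR-202-5p of Sertoli cells reached at most 2.22 RPM. Which cells held miR-375-3p was not measured. In bulk tissue, fewer or more cells of a type and less or more RNA per cell cannot be told apart.

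miR-375-3p stood at 46.8, 33.7 and 52.6 RPM in WT libraries 1 to 3 and at 99.3, 124.0 and 109.2 RPM in knockout libraries 1 to 3. The groups did not overlap, and the lowest knockout value was 1.89-fold the highest WT value. The means were 44.4 ± 9.6 RPM in WT and 110.8 ± 12.4 RPM in the knockout (SD, n = 3), a ratio of 2.50. On the scale of log2(RPM + 1), fitted in limma over all 570 miRNAs with a value above 0, the knockout was higher by 1.32 (SE 0.19). The authors' deposited table gives a log2 fold change of 1.32 for this row. Of the 570 fitted miRNAs, 6.32% were called in either direction, 0.702% as higher and 5.61% as lower in the knockout (adjusted p below 0.05 in limma, by the Benjamini-Hochberg method). The 570 include miR-375-3p, and nothing is read from these shares for a miRNA that the same contrast chose. Among the 218 miRNAs whose mean was at least 10 RPM, 7.34% had all knockout libraries above all WT libraries and 41.7% had all of them below.

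**Figure D1:**
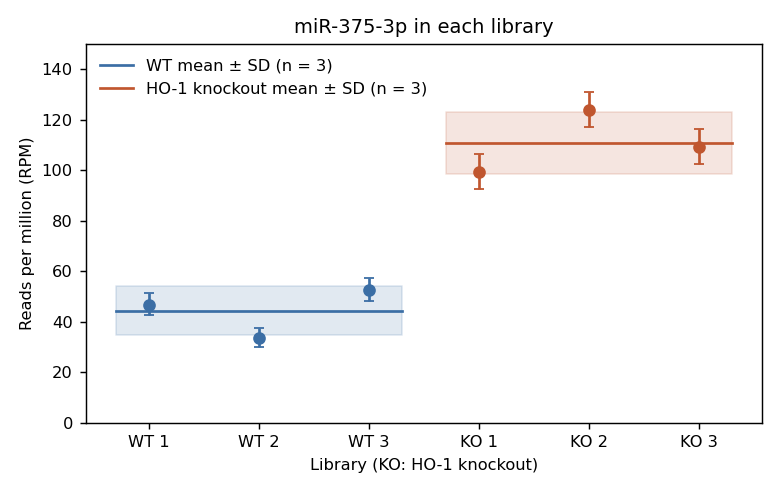
miR-375-3p in RPM (vertical axis) in each of the 6 libraries (horizontal axis), with 95% counting intervals as bars and the mean ± SD of each genotype as a line and band. The WT libraries lie between 33.7 and 52.6 RPM and the knockout libraries between 99.3 and 124.0 RPM.

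The values rest on 470, 308 and 498 reads in WT libraries 1 to 3 and on 824, 1216 and 982 reads in knockout libraries 1 to 3. Counting error alone would give a coefficient of variation of 4.48% to 5.7% in WT and 2.87% to 3.48% in the knockout. The measured coefficient of variation was 21.7% in WT and 11.2% in the knockout, so most of the spread between libraries lay above counting error. In increasing order the libraries were WT 2, WT 1, WT 3, knockout 1, knockout 3 and knockout 2. The 95% counting intervals (exact Poisson) of WT 1, 42.7 to 51.2 RPM, and WT 3, 48.0 to 57.4 RPM, overlapped, as did those of knockout 1, 92.6 to 106.3 RPM, and knockout 3, 102.5 to 116.3 RPM. WT 2, at 30.1 to 37.7 RPM, lay below the other WT libraries, and knockout 2, at 117.1 to 131.1 RPM, above the other knockout libraries. These intervals cover counting error only and no other difference between libraries. Whether PCR copies were removed was not given, and copies left in would make the intervals too narrow. By abundance miR-375-3p ranked between 142 and 167 of the 764 rows in the WT libraries and between 111 and 114 in the knockout libraries. Ranks do not depend on the scaling of a library.

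The other arm, miR-375-5p, was listed at 0 in all 6 libraries. Against 4298 reads of the 3p arm over the 6 libraries, the 0 reads of the 5p arm allow it a share of up to 0.0698% of the reads of both arms (3 reads in place of 0). With that allowance of 3 reads, the reads of the 3p arm were at least 1433-fold those of the 5p arm. Differences between the arms in ligation or mapping are not covered by it. This held over both genotypes together, and a change of the arm ratio between genotypes was not detectable at this depth.

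The change was recomputed with other ways of making libraries comparable, because the most abundant miRNA took 35.2% ± 2.2 of the WT reads and 43.4% ± 3.1 of the knockout reads (SD, n = 3), which lowers the share left for every other miRNA. With the totals taken without miR-122-5p, miR-375-3p averaged 41.4 ± 9.1 in WT and 118.3 ± 6.8 in the knockout, a ratio of 2.86 and a log2 change of 1.51. With TMM, a trimmed mean of log ratios, the means were 41.4 ± 11.5 and 119.3 ± 5.1, a ratio of 2.88. RLE, a median of ratios, gave 2.91, the upper quartile gave 2.84 and totals without the 10 most abundant miRNAs gave 2.96. Under each of these 5 scalings the ratio was thus larger than the 2.50 of the RPM, and the lowest knockout value stayed 2.07-fold to 2.26-fold above the highest WT value. The SD within the knockout went from 12.4 in RPM to between 2.5 and 6.8 in scaled units, and that within WT from 9.6 to between 9.1 and 13.3.

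The median log2 change in RPM over the 218 miRNAs with a mean of at least 10 RPM was -0.29, and with the 5 scalings this median lay between -0.10 and -0.04. Relative to that median, miR-375-3p was higher by 1.60 in RPM and by 1.61 in every one of the 5 scalings. Its log2 change ranked 1 among the 218 under all 6 scalings, RPM included. A scaling moves the log2 change of every miRNA by nearly the same amount. The rank and the distance from the median therefore could hardly differ between scalings, and their constancy is no separate result. The rank also comes from the contrast that chose miR-375-3p. The next largest in RPM was 0.93, of miR-183-5p, a miRNA of sensory and endocrine cells.

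**Figure D2:**
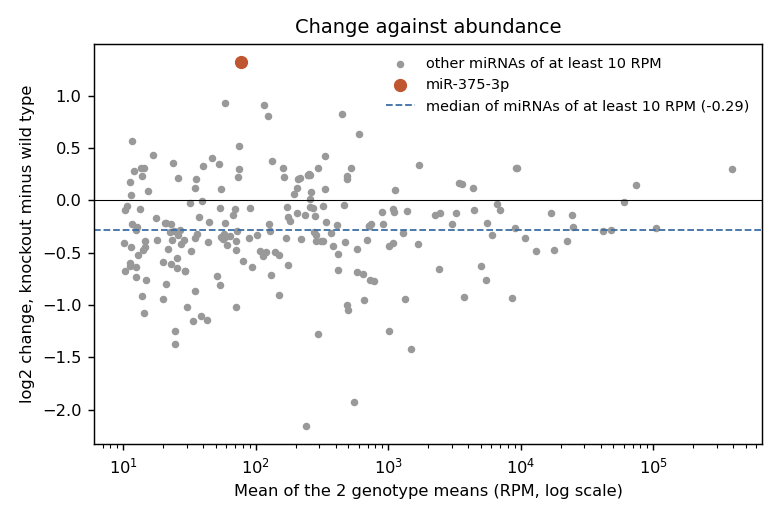
The log2 change from WT to knockout on the log2(RPM + 1) scale (vertical axis) against the mean of the genotype means in RPM (horizontal axis, log scale) for the 218 miRNAs of at least 10 RPM. miR-375-3p, at 1.32, is the highest point, and the dashed line is the median of -0.29.

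Without WT library 2, the lowest of all, the log2 change of miR-375-3p was 1.14, and without WT library 3, the highest of its group, it was 1.45. Leaving out a knockout library gave between 1.24 and 1.39. On whole reads recovered from the RPM values, edgeR gave 1.52 and DESeq2 1.54. Every setting therefore stayed within 0.26 of the 1.32 in RPM, the standard deviation of miR-375-3p between libraries of a genotype on that scale.

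**Figure D3:**
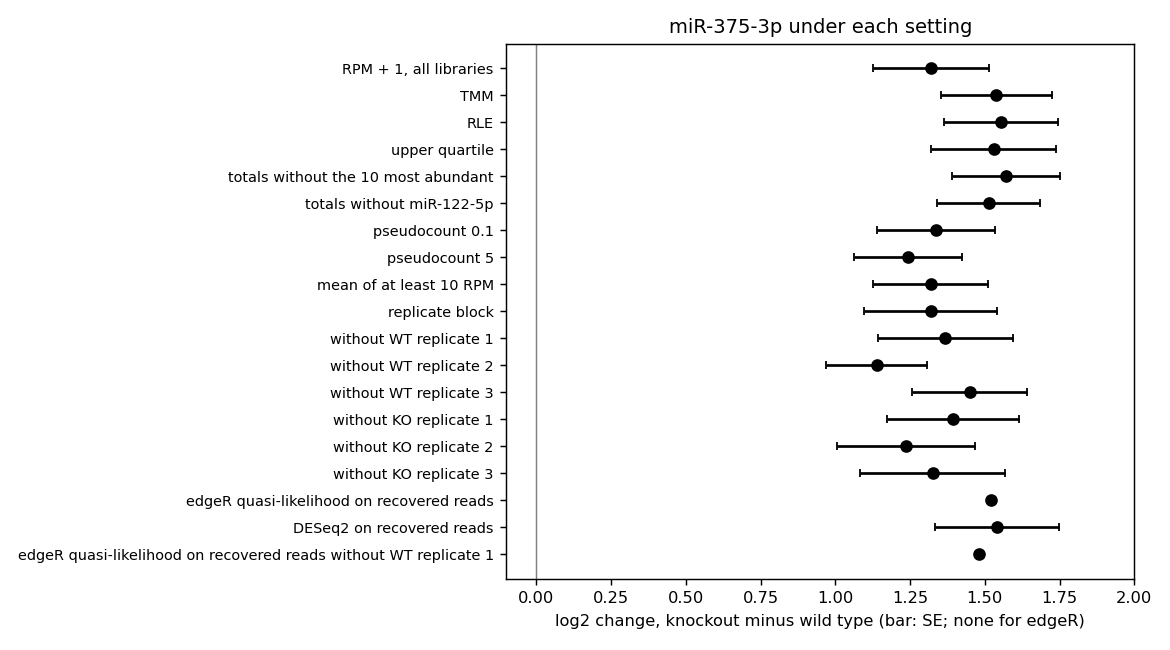
The log2 change of miR-375-3p from WT to knockout (horizontal axis, bars are SE, none is given by edgeR) under each scaling, pseudocount, filter, block, left-out library and count test (vertical axis). The values run from 1.14 without WT library 2 to 1.57 with totals without the 10 most abundant miRNAs.

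miRNAs that follow miR-375-3p were sought among the other 217 miRNAs of at least 10 RPM. The measure was the SD over the 6 libraries of the log2 ratio of miR-375-3p to the partner, divided by the SD of miR-375-3p itself, 0.76 on the log2 scale. A miRNA that kept a fixed ratio to miR-375-3p would have a value of 0, and one that did not vary would have a value of 1. For opposing miRNAs the sum of the log2 values took the place of the difference. The genotypes form separate clusters, so no correlation is given. Partners found this way are named for their values in the same contrast and get no test.

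miR-29b-3p, known for restraining collagen genes, was the nearest follower, with 0.39, and the 1 miRNA below 0.5. It stood at 87.8, 72.3 and 77.3 RPM in WT libraries 1 to 3 and at 131.3, 154.6 and 164.8 RPM in knockout libraries 1 to 3. Each miR-375-3p read was matched by 1.47 to 2.14 miR-29b-3p reads in WT and by 1.25 to 1.51 in the knockout. Those ranges overlap, though the knockout to WT ratio of miR-29b-3p, 1.90, was smaller than that of miR-375-3p.

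The next was miR-674-3p, a rodent miRNA, just outside the limit at 0.53. It measured 102.3, 85.1 and 79.9 RPM in WT and 171.9, 158.9 and 137.2 RPM in the knockout. The others of the 8 nearest were miR-151-3p, miR-340-3p, miR-183-5p, miR-148b-5p, miR-128-3p and the leukocyte miRNA miR-142-3p, with measures of 0.65 to 0.76. Their knockout means were 1.34-fold to 1.87-fold their WT means. In all 6 the groups did not overlap, beside 7.34% of the 218 miRNAs of at least 10 RPM with all knockout libraries higher, these 6 included. miR-142-3p, for example, stood at 281.8, 305.6 and 259.6 RPM in WT and at 389.6, 367.6 and 377.0 RPM in the knockout.

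All 8 followers were higher in every knockout library than in any WT library, as were 7.34% of the 218 miRNAs of at least 10 RPM. That share, 16 miRNAs, includes miR-375-3p and the 8 followers themselves. The followers were chosen by likeness to miR-375-3p, whose own groups do not overlap, so nothing further is read from this. None shared the ranking of the WT libraries by miR-375-3p. miR-375-3p was highest in WT library 3, where miR-151-3p, miR-183-5p, miR-148b-5p, miR-128-3p, miR-674-3p and miR-142-3p each had their lowest value. miR-151-3p, for example, measured 393.5, 357.2 and 232.3 RPM in WT libraries 1 to 3. Around the genotype means, the log2 ratio of miR-375-3p to miR-151-3p had an SD of 0.46 and that to miR-183-5p of 0.52, both larger than the 0.26 of miR-375-3p alone. For miR-29b-3p it was 0.21.

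A shared seed did not go with following in the miR-29 family. These are the mature sequences of its 3 members from RefSeq on GRCr8, shown because they share the seed in capitals.
miR-29b-3p: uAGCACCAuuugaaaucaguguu
miR-29a-3p: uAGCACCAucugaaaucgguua
miR-29c-3p: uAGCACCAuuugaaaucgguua
miR-29a-3p stood at 4593 ± 228 RPM in WT and 4309 ± 521 RPM in the knockout (SD, n = 3), with a follower measure of 1.05. miR-29c-3p stood at 47.4 ± 3.5 and 40.8 ± 4.0 RPM, with 1.15. miR-29b-3p comes from 2 listed hairpins, so its reads cannot be assigned to either gene.

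Opposite arms of the followers' hairpins are given next, without that of miR-148b-5p. miR-674-5p, from the hairpin of miR-674-3p, stood at 37.5 ± 3.6 RPM in WT and 27.0 ± 6.1 RPM in the knockout (SD, n = 3). All its knockout values lay below all WT values, as for 41.7% of the miRNAs of at least 10 RPM, and limma did not call it (adjusted p = 0.26). miR-151-5p stood at 33.3 ± 12.4 and 36.8 ± 6.6 RPM, with overlapping groups. miR-340-5p, from the hairpin of miR-340-3p, stood at 296.7 ± 70.6 RPM in WT and 264.0 ± 46.6 RPM in the knockout (SD, n = 3), and the groups overlapped. miR-142-5p stood at 328.5 ± 29.6 and 317.4 ± 51.4 RPM, also with overlapping groups. The listed opposite arms of miR-29b-3p, miR-183-5p and miR-128-3p were at most 1.73 RPM in the mean of either genotype.

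Opposing miRNAs outnumbered followers in RPM, 7 against 1, but not under the other scalings, where 1 or 2 opposers stood beside 2 followers. In RPM 41.7% of the miRNAs of at least 10 RPM had all knockout values below all WT values. There 7 miRNAs had an opposing measure below 0.5, from 0.38 for miR-143-5p to 0.49 for miR-20a-5p, with miR-143-3p just outside at 0.501. miR-143-5p, from a hairpin known from smooth muscle, stood at 62.4, 65.0 and 49.6 RPM in WT and at 24.1, 31.5 and 23.2 RPM in the knockout. miR-31a-5p stood at 1513, 1393 and 1344 RPM in WT and at 507.1, 656.0 and 628.4 RPM in the knockout, so that 24.2 to 39.1 miR-375-3p reads per 1000 of its reads became 173.8 to 195.8.

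The other opposers were let-7f-2-3p, miR-322-5p, the endothelial miR-126a-5p, miR-15a-5p and miR-20a-5p of the miR-17-92 cluster. miR-20a-5p stood at 647.1, 630.3 and 664.7 RPM in WT and at 266.7, 337.6 and 377.0 RPM in the knockout. Both arms of the miR-143 hairpin were among the 8 nearest opposers. Both measures depend on library scaling, the follower measure through the SD of miR-375-3p by which it is divided. With the 5 scalings miR-674-3p joined miR-29b-3p below 0.5 as a follower. With TMM, RLE and the totals without abundant miRNAs 2 opposers lay below 0.5, miR-143-5p and miR-31a-5p, and with the upper quartile 1, miR-143-5p. miR-31a-5p stayed among the 8 nearest in all 14 settings compared and miR-143-5p in 13.

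**Figure D4:**
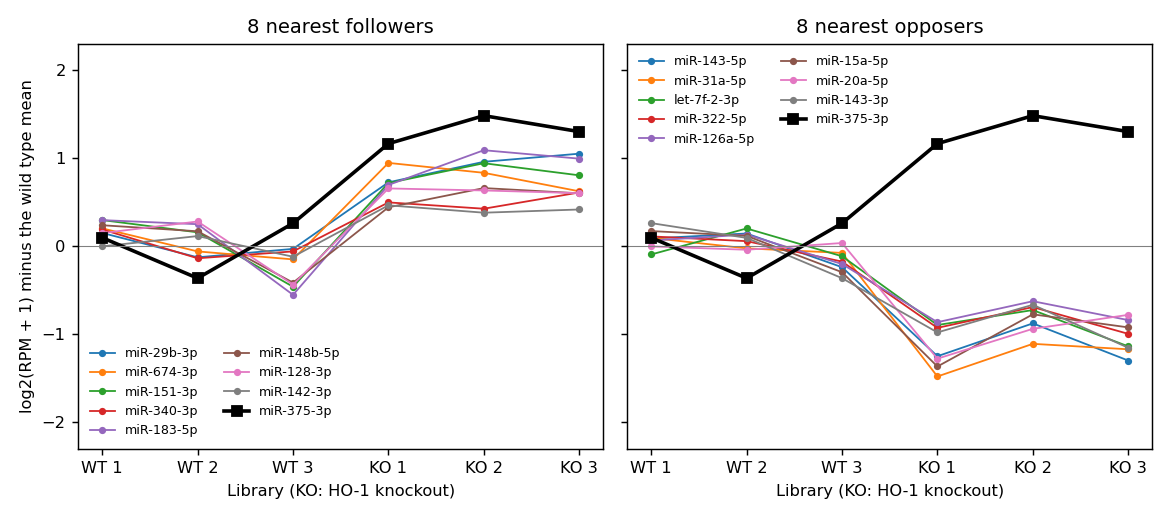
log2(RPM + 1) minus the WT mean (vertical axis) in each library (horizontal axis) for the 8 nearest followers (left) and opposers (right), with miR-375-3p in black. Lines link the values of 1 miRNA and imply no order of libraries; all followers lie above 0 and all opposers below 0 in the 3 knockout libraries.

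Within the genotypes another miRNA varied with miR-375-3p. Once the mean of each genotype was removed, the log2 ratio to miR-125b-5p, a miRNA abundant in fibroblasts and smooth muscle, had an SD of 0.07, the smallest of the 217, against a median of 0.32. miR-125b-5p stood at 5060, 4054 and 5458 RPM in WT libraries 1 to 3 and at 2247, 2838 and 2552 RPM in knockout libraries 1 to 3. In both genotypes its libraries had the same ranking as for miR-375-3p. There were 108.1, 120.2 and 103.9 miR-125b-5p reads per miR-375-3p read in the WT libraries and 22.6, 22.9 and 23.4 in the knockout libraries. The ratio of these miRNAs thus varied by little within a genotype and differed 4.80-fold between genotypes, and it does not depend on library scaling. This partner is the nearest of 217 over 3 libraries a genotype, and whether it would be the nearest in other libraries was not tested.

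miR-29c-5p and miR-455-5p came next within genotypes, with SDs of 0.12 and 0.13. miR-455-5p stood at 200.9, 134.1 and 261.4 RPM in WT and at 95.3, 107.4 and 103.3 RPM in the knockout. miR-29c-5p, at 11.6, 8.76 and 11.7 RPM in WT and 8.67, 10.3 and 10.8 RPM in the knockout, overlapped between genotypes. The 3 miRNAs whose variation within genotypes was nearest to that of miR-375-3p were therefore not among its followers between genotypes.

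**Figure D5:**
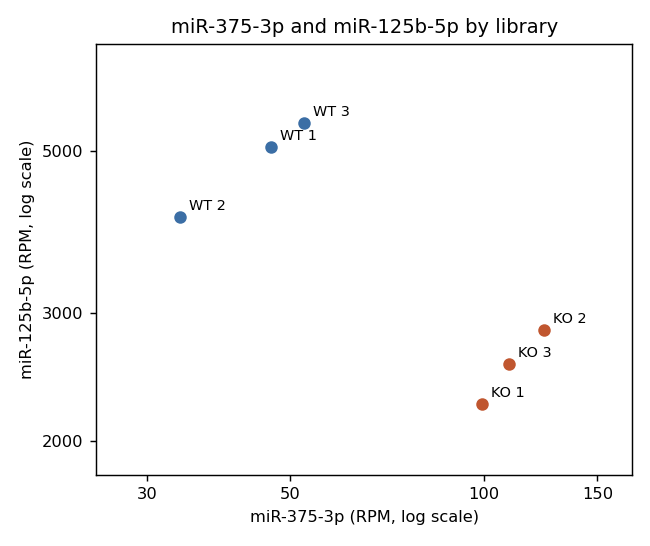
miR-125b-5p against miR-375-3p in each library, both in RPM on log scales, WT in blue and knockout in red. Within each genotype the library with more miR-375-3p had more miR-125b-5p, while the knockout libraries lie at higher miR-375-3p and lower miR-125b-5p than the WT libraries.

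Other miRNAs known from the cells in which miR-375 is described were examined as lists. Of the islet and neuroendocrine list, 12 of 16 rows were fitted and none was called in limma, beside 6.32% of all fitted miRNAs. None had an unadjusted p below 0.05 in limma, beside 110 of all 570 fitted miRNAs. On recovered reads edgeR and DESeq2 each called 1 member higher, miR-9a-5p. Over all fitted miRNAs, edgeR called 4.56% higher and DESeq2 6.14%. The median log2 change of the list was -0.03, against -0.12 over all 570 fitted miRNAs. Its most abundant member, miR-7a-5p, an islet and pituitary miRNA, stood at 4090, 4589 and 3829 RPM in WT and at 4299, 4112 and 5155 RPM in the knockout, overlapping between genotypes. miR-9a-5p, a neural and endocrine miRNA, stood at 18.3, 13.7 and 10.6 RPM in WT and at 20.5, 17.7 and 19.1 RPM in the knockout. The neural miR-124-3p and miR-153-3p did not exceed 0.22 RPM in any library. The exocrine pancreas list, of miR-216a, miR-216b and miR-217, had 2 of 6 rows fitted, with a highest value of 0.55 RPM, and none was called by limma, edgeR or DESeq2 or had an unadjusted p below 0.05.

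In the epithelial miR-200 family, 5 of 9 fitted rows fell in limma, beside 5.61% of all fitted miRNAs, and none rose. An unadjusted p below 0.05 in limma was found for 5 of the 9, beside 110 of all 570. The median log2 change of the family was -1.10, against -0.12 over all 570 fitted miRNAs. With 1 library left out, 1 to 5 rows of the family fell, beside 5 to 22 of all fitted miRNAs. There were 3 without WT library 1 or 3, beside 16 of 554 and 22 of 565 over all. Without knockout library 1 or 2 there were 2, beside 11 of 563 and 19 of 565 over all. Without knockout library 3 there was 1, beside 5 of 566. With upper-quartile scaling 3 fell, beside 4.39% of all. edgeR and DESeq2 called 5 lower, beside 6.14% and 6.49% of all fitted miRNAs, and 1 higher, miR-200c-3p. The 5 were both arms of miR-200b and of miR-200a, and miR-429. miR-200b-3p stood at 897.6, 621.2 and 1123.0 RPM in WT and at 237.6, 206.8 and 228.9 RPM in the knockout, so that 51.1 ± 3.9 miR-375-3p reads per 1000 miR-200b-3p reads in WT stood beside 498.2 ± 92.7 in the knockout (SD, n = 3). miR-200a-3p fell from 419.6 ± 104.1 to 169.3 ± 18.5 RPM (SD, n = 3), though without knockout library 3 it was not called (limma adjusted p = 0.079), and miR-200b-5p lost its call when knockout library 1, 2 or 3 was left out (limma adjusted p of 0.064, 0.058 and 0.085). miR-200c-3p, which is transcribed apart from miR-200a and miR-200b, stood at 58.2, 41.6 and 39.2 RPM in WT and at 65.1, 50.5 and 61.0 RPM in the knockout, with overlapping groups.

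The cluster that holds miR-183, with miR-182 and miR-96, had none of 5 fitted rows called in limma, beside 0.702% called higher over all. Of the 5, 1 had an unadjusted p below 0.05 in limma, miR-183-5p, beside 110 of all 570 fitted miRNAs. edgeR and DESeq2 each called 3 higher, miR-183-5p, miR-96-5p and miR-182, beside 4.56% and 6.14% of all fitted miRNAs. limma called 3 with TMM, RLE or upper-quartile scaling, beside 3.51%, 3.51% and 3.33% of all. It called 2 with totals without the 10 most abundant miRNAs, beside 25 of all 570, and 1 with totals without miR-122-5p, beside 17 of 570. With any 1 library left out it called 0, beside 0 to 8 higher over all. In the replicate block it also called 0, beside 4 of 570. With so few higher calls over all, these counts of 0 say little about the cluster. The list's median log2 change was 0.38, against -0.12 over all fitted miRNAs. miR-183-5p, which was among the followers, stood at 48.9, 47.3 and 26.7 RPM in WT and at 64.8, 85.5 and 80.0 RPM in the knockout. As a follower it was picked by its values in this same contrast, so nothing is read from its part in these counts. The gut epithelial list, with all 4 rows at 10 RPM or more, had a median log2 change of -0.43, against -0.29 over the 218 miRNAs of that abundance. All 4 had an unadjusted p below 0.05 in limma, beside 110 of all 570 fitted miRNAs. After adjustment 1 of its 4 rows fell in limma, beside 5.61% of all fitted miRNAs. It was miR-194-5p, which went from 15124 ± 497 to 10877 ± 1403 RPM (SD, n = 3). That call was lost with each of the 5 scalings (log2 change -0.23 to -0.29, limma adjusted p between 0.074 and 0.29), with edgeR and DESeq2, in the replicate block, and on leaving out WT library 1, 2 or 3 or knockout library 1 or 3 (adjusted p in limma from 0.075 to 0.17). miR-192-5p of that list stood at 52273 ± 3175 RPM in WT and 42843 ± 1839 RPM in the knockout.

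The markers of hepatocytes, germ cells and Sertoli cells had no call in limma among 2, 6 and 1 fitted rows, beside 6.32% of all fitted miRNAs, and their median log2 changes were 0.10, -0.21 and 0.00. An unadjusted p below 0.05 in limma was found for miR-122-5p and for miR-34c-5p, beside 110 of all 570 fitted miRNAs. miR-122-5p was called higher by DESeq2 but not by edgeR with all libraries. It was also called by edgeR without WT library 1 (adjusted p = 0.013), and by limma with totals without miR-122-5p (adjusted p = 0.045) or over miRNAs of at least 10 RPM (adjusted p = 0.0086). The other of the 2 hepatocyte rows, miR-122-3p, was called by none of limma, edgeR and DESeq2. Its log2 change in RPM was negative, while that of miR-122-5p was 0.30, which gives the list median of 0.10. miR-34c-5p, known from spermatocytes and spermatids, stood at 38.0, 24.9 and 29.3 RPM in WT and at 18.4, 22.0 and 20.9 RPM in the knockout. The part of these markers in the values of miR-375-3p was not tested.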

How the data were processed

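Per the labels' protocols, 1 μg of total RNA went into each library, made with a ligation-based small RNA kit and sequenced as single-end 50 bp reads. The submitters' processing notes name FastQC, BWA, edgeR and rn6, with no role or version. Trimming, multi-mapping rules and the miRNA annotation were not given in the sources used here. The authors deposited 1 table of RPM values, their genotype means, a log2 fold change (of those means) and a p-value, whose test is likewise not given. All 6 library columns were matched by name, with 0 other per-sample columns.

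In R 4.3.3, limma 3.58.1 with a trend modelled log2(RPM + 1) for the 570 miRNAs above 0 somewhere. It used genotype alone, with Benjamini-Hochberg adjustment at 0.05. The fit was tried on simulated counts after TMM scaling, so that trial does not cover RPM without such scaling. The design had foreseen limma for RPM. Between 97.8% and 98.9% of values above 0 were whole reads within a tolerance of 0.0051 RPM. In WT library 1 the size of 1 read, 0.0996 RPM, is too close to 0.1 for low values to show it, so its reads rest on the higher values. On recovered reads edgeR 4.0.16 called 26 miRNAs higher and 35 lower, and DESeq2 1.42.0 called 35 and 37. These are alternatives only.

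miRNAs are named by likeness to miR-375-3p (8 followers, 8 opposers and 3 within genotypes), or as called or most abundant members of a list. 5 list members that the rule allows, mostly rare or inconstant in sign, are given at most by range or direction. miR-9a-5p, miR-96-5p, miR-200c-3p, the miR-29 family and the opposite arms were named after their values were seen. miR-375-3p, the lists and the measures were chosen with earlier results of these data known.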

Additional observations from a re-analysis of the deposited data

How the results depend on the processing

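The log2 change of miR-375-3p stayed positive and within 1 SD between libraries of its value in RPM under all 18 alternatives. Counts over all miRNAs, in which miR-375-3p itself is counted, moved more. The 4 miRNAs called higher in the knockout by limma became 20 with TMM, 20 with RLE, 19 with the upper quartile, 25 without the 10 most abundant miRNAs in the totals, 17 without miR-122-5p in them, 7 with a pseudocount of 0.1 and 9 with a mean of at least 10 RPM. They became 26 with edgeR, 35 with DESeq2 and 33 with edgeR without WT library 1, an alternative chosen after seeing the data. Leaving out 1 library gave 0 to 8 higher calls, with 0 without knockout library 3, and 5 to 22 lower calls in place of 32. In the 5 scalings of RPM the lower calls were 25 to 29. Because a scaling moves the balance of higher and lower calls this way, the 4 higher and 32 lower calls in RPM are relative to each library's total.

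With the replicate number as a block, 18 miRNAs were called lower and 4 higher, and the log2 change of miR-375-3p was 1.32 as without it. The labels do not tie equal numbers to a shared animal or day. Deviations of same-numbered libraries correlated at 0.03, 0.18 and 0.20, and not every library correlated best with its own number, so the numbers were not taken as pairs.

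The count of followers rose from 1 to 2, with miR-674-3p added, in all 5 scalings, and was 1 to 2 with 1 library left out, 2 without knockout library 3. The 7 opposers became 2 with TMM, 2 with RLE, 1 with the upper quartile, 2 without the 10 most abundant miRNAs in the totals, 2 without miR-122-5p in them, 3 at a mean of at least 100 RPM and 1 at a limit of 0.4. With 1 library left out they numbered 5 to 15, with 14 without WT library 2, 11 without WT library 3 and 15 without knockout library 2. miR-29c-5p, with a log2 change of -0.10 in RPM, was reversed to 0.11 with TMM, 0.12 with RLE, 0.10 with the upper quartile, 0.14 and 0.085 with the totals without the 10 most abundant and without miR-122-5p, 0.10 with edgeR, 0.12 with DESeq2 and 0.082 with edgeR without WT library 1. The cause of these shifts was not tested.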
